A study of Mus musculus with 15 samples.

Results

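Crosslink sites of tristetraprolin (TTP, encoded by Zfp36) that lay within the first 100 nt of a 3′UTR were examined in 6 lists of iCLIP sites from mouse macrophages. A site belonged to this set when it fell at spliced positions 1 to 100 after the stop codon of a protein-coding transcript whose 3′UTR was at least 300 nt long, taking the longest annotated 3′UTR at that site. Of the 123142 nucleotides listed as sites in at least 1 list, 3274 met this rule, and they came from 577 genes. Of these nucleotides, 2984 were in 1 list and 221 in 2 lists, and no nucleotide was in all 6 lists, the highest number being 5 lists for 8 nucleotides.

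All cells were immortalised bone marrow-derived macrophages of C57BL/6 mice that lack TTP, transformed with human c-myc and hRasG12V, and carried an all-in-one retroviral vector with a tetracycline-inducible promoter. The vector expressed either GFP-TTP or GFP-TTP-AA, a mutant without its MK2 phosphorylation sites (S52A, S178A), and only the coding sequence of TTP was present. Every culture received doxycycline for 6 h. Cells were left without lipopolysaccharide (LPS, 0 h) or received LPS for 1 or 4 h, and GFP-tagged protein was precipitated after UV crosslinking. The 15 samples fell into 6 groups, and there were 2, 4 and 2 samples of TTP and 2, 3 and 2 of TTP-AA in order of time, but the samples of a group were pooled into 1 list before the sites were called. No replicate error could therefore be computed, no list of GFP alone was used here, and each comparison below is between pooled lists and not between conditions. The headers of both 1 h lists carry a mark for treating regions as a unit that the others lack, so time and calling cannot be told apart. Although the cells lack TTP, the 3′UTR of Zfp36 held 21 cDNAs of TTP and 131 of TTP-AA at 1 h, none of them next to the stop codon. All values are unique cDNA counts at single nucleotides. Intervals are 95% intervals that cover counting error and treat sites as independent, although neighbouring sites of 1 gene are not.

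TTP is a zinc finger protein that binds AU-rich elements in 3′UTRs, with UAUUUAU and longer repeats of AUUUA as its preferred sequences, and recruits the deadenylation machinery to mRNAs such as Tnf. MK2 phosphorylates TTP after LPS, which promotes binding of 14-3-3 proteins and restrains decay. The beginning of the 3′UTR differs from the rest of it because a terminating ribosome covers the stop codon and the nucleotides just after it.

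The sequences around the near-stop site with the most cDNAs are given for genes that led the lists, to show which of them carried the pentamer AUUUA and which did not. Each is the 29 nt of the GENCODE M21 transcript centred on the site, which is base 15, written 5′ to 3′ with every AUUUA and AUUUUA in capitals. In Hist1h4d, 3′UTR position 8 held 30 cDNAs of TTP-AA at 1 h (chr13:23581907-23581935, plus strand, GRCm38). In Ptgs2 (chr1:150105818-150105846, plus strand) the window of position 50 held 4 copies of AUUUA. The windows of Lpl (chr8:68904562-68904590, plus strand), Ddx5 (chr11:106781761-106781789, minus strand) and B2m (chr2:122152695-122152723, plus strand) each held AUUUA as well.
Hist1h4d: cggcuaaacguacucAUUUAuuuuucuuc
Ptgs2: aAUUUAAUUUAauuAUUUAauAUUUAuac
Lpl: aacaaaguaaAUUUAAUUUAaaaaaauaa
Ddx5: cagacaagauaguuAUUUAagaaacaugg
B2m: uaauaugcuauacaAUUUAugcacgcaga

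A second set lacked AUUUA in this window. Tmsb4x (chrX:167207430-167207458, minus strand) and Mdm2 (chr10:117690160-117690188, minus strand) held AUUUUA instead. Cdkn1a (chr17:29099467-29099495, plus strand), Cct8 (chr16:87483904-87483932, minus strand) and Snrpf (chr10:93583439-93583467, minus strand) held other runs of U and A. The strongest near-stop site of Actb (chr5:142903735-142903763, minus strand) had only 6 U among its 29 bases.
Tmsb4x: uugccuucuuAUUUUAcuucuuuuagcug
Mdm2: aAUUUUAuauuucuaacuauaugaccccc
Cdkn1a: acucugugugucuuaauuauuauuugugu
Cct8: uauuuuucuuauuuguguuuguacucugc
Snrpf: auagcaucuuggauuuuuuuuuuuauaua
Actb: cuuugacaaaaccuaacuugcgcagaaaa

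TTP-AA at 1 h held by far the most sites next to stop codons. There were 2857 sites with 4240 cDNAs in 521 genes for TTP-AA at 1 h, against 373 sites with 457 cDNAs in 112 genes for TTP at 1 h. At 0 h there were 152 sites in 36 genes for TTP and 223 sites in 49 genes for TTP-AA. At 4 h there were 11 sites in 4 genes for TTP and 45 sites in 14 genes for TTP-AA. These numbers followed the size of the lists, since the 3′UTRs of at least 300 nt held 57616 sites of TTP-AA and 6365 of TTP at 1 h, and 504 to 3982 in the other lists.

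As a share of the sites in such 3′UTRs, the first 100 nt held 4.82% (4.13 to 5.63) of TTP sites and 5.60% (4.93 to 6.36) of TTP-AA sites at 0 h. At 1 h the shares were 5.86% (5.31 to 6.46) for TTP and 4.96% (4.78 to 5.14) for TTP-AA, and at 4 h 2.18% (1.22 to 3.87) and 7.04% (5.30 to 9.29). The first 100 nt made up 4.05% to 4.70% of the nucleotides of the bound 3′UTRs in the 6 lists, so in every list but TTP at 4 h the share of sites was above the share of length. The difference of TTP-AA minus TTP was 0.776 percentage points (-0.272 to 1.80) at 0 h, -0.901 points (-1.53 to -0.322) at 1 h and 4.86 points (2.44 to 7.31) at 4 h, by Newcombe's interval. The intervals at 1 h and 4 h excluded 0, in opposite directions. At 1 h the difference shrank to -0.246 points (-0.745 to 0.216) when sites were weighted by their cDNAs, and at 4 h the TTP list rested on 4 genes. The difference at 4 h was 1.79 points (-1.59 to 5.04) with 3′UTRs of at least 1000 nt and 2.99 points (-2.32 to 8.01) with sites of at least 2 cDNAs, and it turned to -0.380 points (-4.70 to 3.82) for positions 1 to 200.

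**Figure D1:**
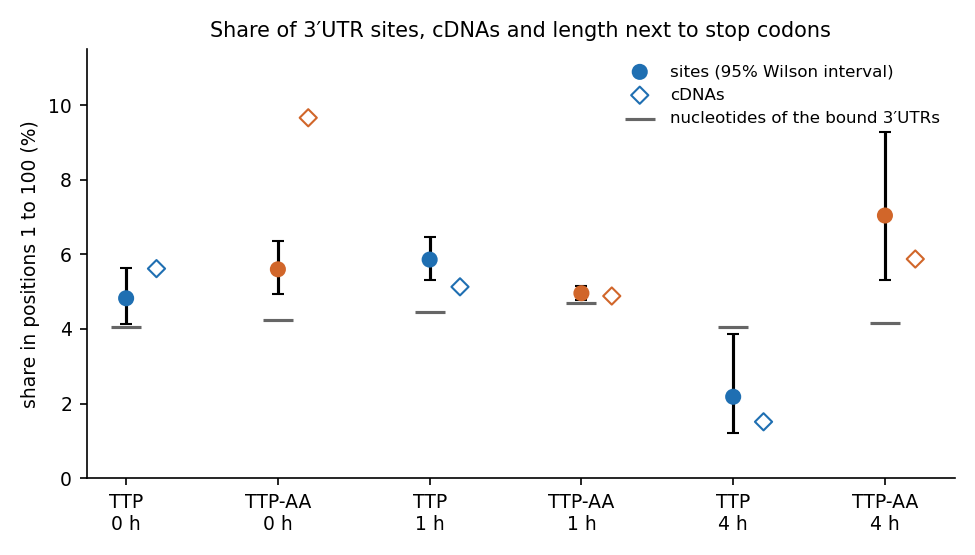
Share (%) of 3′UTR sites (filled circles, bars are 95% Wilson intervals), of cDNAs (open diamonds) and of 3′UTR nucleotides (grey dashes) that lay at positions 1 to 100, for TTP (blue) and TTP-AA (orange) at 0, 1 and 4 h of LPS. The share of sites ran from 2.18% in TTP at 4 h to 7.04% in TTP-AA at 4 h, and the share of cDNAs was highest in TTP-AA at 0 h, at 9.66%.

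Weighted by cDNAs, TTP-AA at 0 h stood apart, with 9.66% (8.88 to 10.5) of its 3′UTR cDNAs next to stop codons against 5.62% (4.95 to 6.38) for TTP. Hist1h4d, a gene of the replication-dependent histone H4 family, alone supplied 251 of the 496 near-stop cDNAs of TTP-AA at 0 h (50.6%) and 70 of the 224 of TTP (31.3%). Without the histone genes, the site shares at 0 h were 4.25% for TTP-AA and 4.09% for TTP.

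Within the first 100 nt the sites were not evenly spread. On 1 transcript per gene, with every site counted, TTP-AA at 1 h had 214 sites at positions 1 to 20 and 368 at 21 to 40. It had 565 at 41 to 60, 694 at 61 to 80 and 812 at 81 to 100. Sites then levelled off, with 4952 at positions 101 to 200 and 5011 at 201 to 300, and the last 100 nt of the coding sequence held 221. TTP at 1 h had 41, 59, 80, 88 and 76 sites in the same steps of 20 nt, 622 at positions 101 to 200, 660 at 201 to 300 and 56 in the last 100 nt of the coding sequence. Both lists thus held more sites just after the stop codon than before it, by 12.0 times in TTP-AA and 6.14 times in TTP, and fewer than in the next 100 nt. Coding sites that also fell in the 3′UTR of any transcript were not counted as coding. 3′UTR sites in the coding sequence of another transcript were kept, so these ratios may be too high. Every annotated 3′UTR counted was at least 300 nt long and so reached all of these positions. Whether the bound mRNAs did was not measured, since an mRNA may end earlier than its longest annotation.

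**Figure D2:**
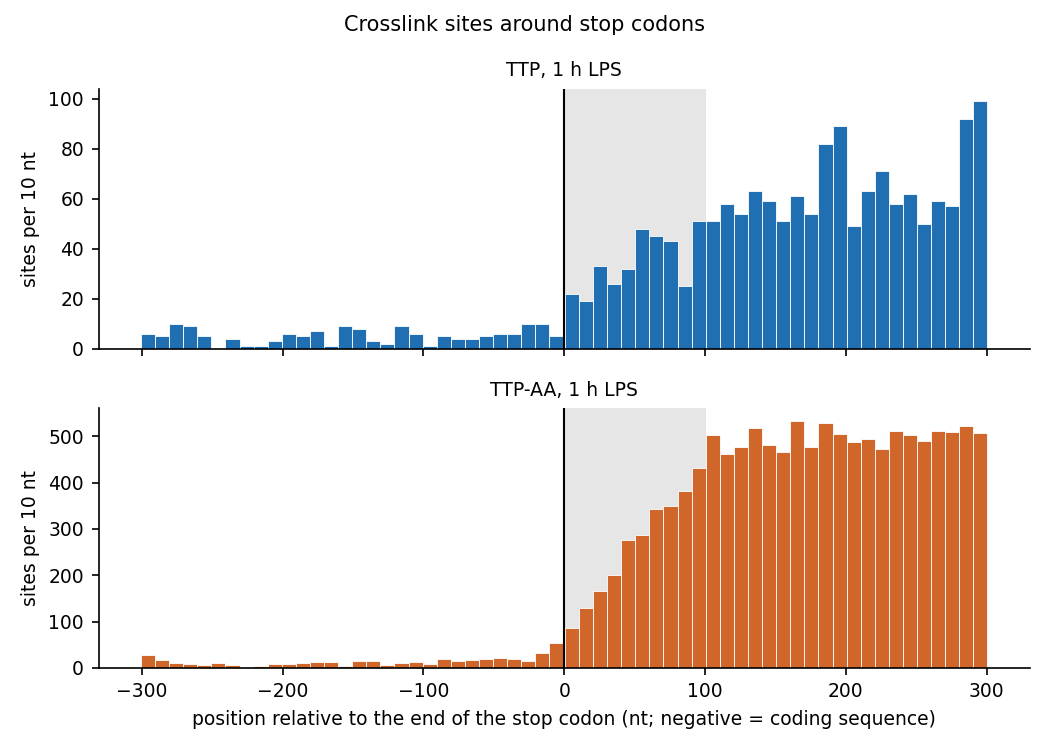
Number of sites per 10 nt from 300 nt before to 300 nt after the stop codon at 1 h of LPS, for TTP (top) and TTP-AA (bottom, with its own scale), with positions 1 to 100 shaded. In TTP-AA the count went from 214 sites at positions 1 to 20 to 812 at positions 81 to 100 and then stayed level, with 4952 sites at 101 to 200 and 5011 at 201 to 300.

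Set against the rest of the same bound 3′UTRs, the density of sites in the first 100 nt was 1.37 times as high (1.23 to 1.52) for TTP and 1.09 times as high (1.05 to 1.13) for TTP-AA at 1 h. The ratio was 1.26 (1.06 to 1.48) for TTP and 1.38 (1.20 to 1.59) for TTP-AA at 0 h, and 0.550 (0.273 to 0.993) and 1.68 (1.19 to 2.31) at 4 h. Without the histone genes the ratios at 0 h were 1.06 (0.880 to 1.26) for TTP and 1.03 (0.878 to 1.21) for TTP-AA, and that of TTP-AA at 4 h was 1.32 (0.892 to 1.88), so these intervals then included 1. In the first 50 nt the ratio of TTP-AA at 1 h was 0.702 (0.657 to 0.749), so its excess over the rest taken as a whole came from the outer part of the window. That rest includes all later positions. Positions 101 to 200 held more sites of this list than positions 1 to 100, 4952 against 2653 with 1 transcript per gene.

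Just inside the limit, positions 91 to 100 held 464 sites of TTP-AA at 1 h, and positions 101 to 110, just outside it, held 545. The 3′UTRs of 300 to 349 nt held 99 of the near-stop sites of this list, whereas those of 250 to 299 nt, which the rule left out, held 304.

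At 1 h, AUUUA was slightly less frequent at sites next to stop codons than further down for TTP-AA. For TTP the shares were close. The pentamer lay within 20 nt of 33.3% (31.5 to 35.0) of near-stop sites and 35.2% of mid-3′UTR sites of TTP-AA at 1 h, where mid-3′UTR means after position 100 and at least 100 nt before the 3′ end. The difference of near-stop minus mid-3′UTR was -1.94 points (-3.70 to -0.134). As means over genes the shares were 30.8% and 36.4%, a difference of -5.62 points (-9.52 to -1.71). With AUUUA within 50 nt the difference was -7.93 points (-9.79 to -6.04), and within 10 nt it was 0.475 points (-1.11 to 2.13). For TTP at 1 h the shares were 36.2% and 36.8%, a difference of -0.570 points (-5.46 to 4.59). At 0 h the difference was 10.4 points (2.23 to 18.3) for TTP, at 55.3% near the stop codon, and -1.34 points (-7.48 to 5.33) for TTP-AA.

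At 4 h the near-stop share was 54.5% (28.0 to 78.7) of 11 TTP sites and 46.7% (32.9 to 60.9) of 45 TTP-AA sites, and the difference from mid-3′UTR sites was 16.2 points (-10.7 to 40.8) and 15.5 points (1.04 to 30.4). Leaving out the histone genes reduced the difference to 5.15 points (-3.62 to 13.9) for TTP at 0 h and to 2.17 points (-11.7 to 19.03) for TTP-AA at 4 h, so those calls rested on histone genes. For TTP-AA at 0 h, leaving them out moved the difference to -8.18 points (-14.5 to -0.795), and this interval excluded 0.

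The longer element UAUUUAU, which the zinc fingers of TTP prefer, was less frequent at near-stop than at mid-3′UTR sites in both 0 h lists, in TTP at 1 h and in TTP-AA at 4 h. It lay within 20 nt of 16.6% (13.2 to 20.7) of near-stop sites and 22.4% of mid-3′UTR sites of TTP at 1 h, a difference of -5.80 points (-9.42 to -1.54), and of 16.3% and 16.5% for TTP-AA. At 0 h it lay near 16.4% of near-stop and 25.0% of mid-3′UTR sites of TTP, and near 5.83% and 15.9% for TTP-AA, differences of -8.51 points (-13.9 to -1.59) and -10.0 points (-12.8 to -5.93). At 4 h the difference was -12.8 points (-17.8 to -1.88) for TTP-AA, and -24.9 points (-29.1 to 1.27) for TTP with its 11 near-stop sites. No nucleotide of the windows of those 11 sites, in 4 3′UTRs, lay near UAUUUAU, so none of them could have had it. The nonamer UUAUUUAUU was near none of the 152 TTP and none of the 223 TTP-AA near-stop sites at 0 h. It lay near no nucleotide of the near-stop windows bound then, in 36 and 49 3′UTRs, so none of these sites could have had it. It was near 17 of 373 TTP sites (4.56%) and 96 of 2857 TTP-AA sites (3.36%) at 1 h. In those windows it was near 1.51% and 1.09% of all nucleotides. The counts at 0 h therefore cannot show a difference in binding between the times.

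Among all pentamers within 20 nt of the near-stop sites, UAUUU exceeded its share over all positions by the most in both 1 h lists, and AUUUA ranked 4 in TTP-AA and 3 in TTP. UAUUU was near 52.96% of the near-stop sites of TTP-AA at 1 h, against 23.7% of all nucleotides in the same windows. AUUUUA, the variant seen in Tmsb4x and Mdm2, was near 9.21% (8.20 to 10.3) of them and 4.84% of all nucleotides. A run of 5 U was near 27.3% (23.1 to 32.1) of near-stop and 39.4% of mid-3′UTR sites of TTP at 1 h, and near 32.4% and 35.6% for TTP-AA. The crosslinked base was U at 58.7% of near-stop sites of TTP and 59.1% of TTP-AA at 1 h, against 31.2% and 33.5% U in the windows as a whole.

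The first 100 nt of the bound 3′UTRs often held AUUUA. It occurred in the first 100 nt of 10.7% of all 16570 3′UTRs of at least 300 nt, and in 34.3% (30.3 to 38.5) of the 522 bound there by TTP-AA at 1 h, but in 8.18% (7.33 to 9.12) of the 3607 bound only further down. For TTP at 1 h the shares were 32.1% (24.2 to 41.3) of 112 and 8.94% (7.41 to 10.8) of 1118. Over all nucleotides of the bound first 100 nt of TTP-AA at 1 h, 15.0% had AUUUA within 20 nt, compared with 7.18% of mid-3′UTR nucleotides. The sites thus exceeded their surroundings 2.22 times near the stop codon and 4.90 times in the mid-3′UTR. The lower ratio was not particular to stop codons. In the last 100 nt of bound 3′UTRs AUUUA was near 34.3% of sites and 18.4% of nucleotides, a ratio of 1.86. Both 100 nt windows were counted only where they held a site, and the mid-3′UTR stretches were mostly longer.

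The excess was highest next to the stop codon itself. For TTP-AA at 1 h, AUUUA lay within 20 nt of 35.9% of the 231 sites at positions 1 to 20, against 7.32% of the nucleotides there, and of 29.7% of the 871 sites at positions 81 to 100, against 19.3%. The ratio of sites to nucleotides fell from 4.91 to 1.54 over these steps. For sites at positions 1 to 20 the search reached into the coding sequence.

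**Figure D3:**
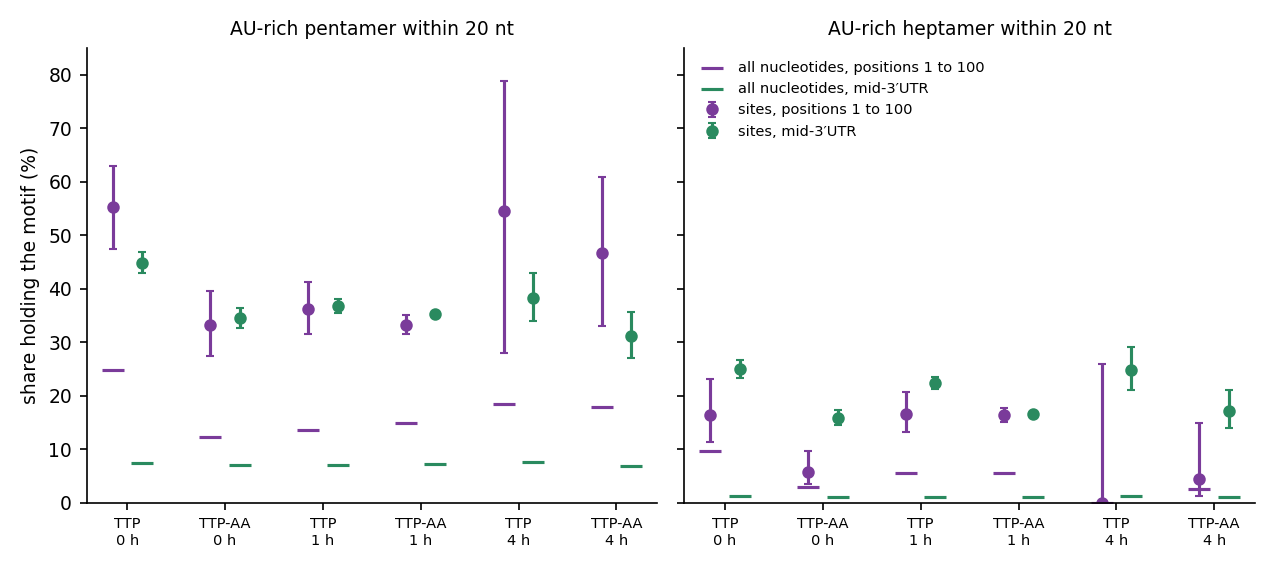
Share (%) of sites (circles, bars are 95% Wilson intervals) with the AU-rich pentamer (left) or heptamer (right) within 20 nt, in each list, for positions 1 to 100 (purple) and mid-3′UTR positions (green), with the share of all nucleotides of the same windows as dashes. For TTP at 1 h the pentamer was near 36.2% of near-stop and 36.8% of mid-3′UTR sites, and the heptamer near 16.6% and 22.4%.

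Bound first 100 nt also held more poly(A) signals. AAUAAA or AUUAAA lay in the first 150 nt of 11.8% of all 16570 3′UTRs, 26.1% (22.5 to 29.98) of those bound next to the stop codon by TTP-AA at 1 h and 38.8% (26.4 to 52.8) by TTP-AA at 0 h. Among the 129 genes whose 3′UTR cDNAs of TTP-AA at 1 h all lay next to the stop codon, the share was 38.0% (30.1 to 46.6), and among the 392 with cDNAs further down 22.2% (18.4 to 26.6). A short 3′UTR that ends at such a signal cannot be told apart in these lists from the first part of a long one. Of the near-stop sites of TTP-AA at 1 h, 326 (11.4%) lay in the last 100 nt of a shorter annotated transcript. Without the 3′UTRs that carried such a signal, near-stop sites made up 4.18% of the 3′UTR sites of TTP-AA at 1 h and 3.64% at 0 h.

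Genes bound only next to the stop codon were common in the small lists. They made up 26 of 36 genes (72.2%) in TTP and 32 of 49 (65.3%) in TTP-AA at 0 h, 69 of 112 (61.6%) in TTP and 129 of 521 (24.8%) in TTP-AA at 1 h, and 3 of 4 and all 14 at 4 h.

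The genes with the most near-stop cDNAs at 1 h were of several kinds. Histone Hist1h4d led, followed by Tmsb4x (thymosin β4, which sequesters actin monomers), Mdm2 and Cdkn1a (p53 targets that encode a ubiquitin ligase for p53 and the cell cycle inhibitor p21) and Ptgs2 (cyclooxygenase 2, an LPS-induced enzyme of prostaglandin synthesis). Lpl (lipoprotein lipase), Cct8 (a chaperonin subunit), Actb (β-actin), Txn1 (thioredoxin) and B2m (β2-microglobulin) completed the first 10.

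Hist1h4d had 70 near-stop cDNAs in TTP and 251 in TTP-AA without LPS, 16 and 217 after 1 h, and 0 and 12 after 4 h. TTP-AA held more than TTP at each time, and all 3′UTR cDNAs of the gene lay at positions 2 to 32 of an annotated 3′UTR of 822 nt (ENSMUSG00000061482.7, chr13:23581915-23581945). Whether the bound mRNA reached far beyond these positions was not measured. The cDNAs therefore cannot be read as confined to the start of a long 3′UTR. The single AUUUA in the first 100 nt of Hist1h4d began at position 9. At 1 h the cDNAs of TTP-AA peaked at position 8, with 30 cDNAs, and at position 17, with 29, and the 16 cDNAs of TTP covered positions 2 to 27. A second H4 gene, Hist1h4j, had no AUUUA in its 3′UTR, and it had 8 and 23 near-stop cDNAs at 0 h and 0 and 11 at 1 h. Coding sequences of H4 genes are nearly identical, but the 30 nt after the Hist1h4d sites occurred in no other annotated transcript.

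Ptgs2 had no cDNAs at 0 or 4 h, and 12 near-stop cDNAs in TTP and 78 in TTP-AA at 1 h. Its first 100 nt held 7 copies of AUUUA, the first at position 16, and 4 of UAUUUAU. These cDNAs made up 66.7% of the 3′UTR cDNAs of Ptgs2 in TTP and 50.3% in TTP-AA, and in TTP-AA they spread from position 6 to 79 with no site above 5 cDNAs.

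Mdm2 had 6 near-stop cDNAs in TTP and 119 in TTP-AA at 1 h and none at 0 or 4 h, although the rest of its 3′UTR held 78 and 79 cDNAs at 0 h. At 1 h the near-stop cDNAs were 4.03% and 7.11% of its 3′UTR cDNAs. In TTP-AA they formed groups around position 36, with 9 cDNAs, and position 73, with 8.

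Cdkn1a was bound next to the stop codon in 4 lists, with 12 cDNAs in TTP and 7 in TTP-AA at 0 h and 11 and 114 at 1 h. These were 29.3%, 20.6%, 23.9% and 23.4% of its 3′UTR cDNAs. The cDNAs of TTP-AA at 1 h lay at positions 58 to 100, with 18 at position 88. No AUUUA occurred in the first 100 nt of Cdkn1a, Mdm2 or Tmsb4x.

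Tmsb4x had 8 near-stop cDNAs in TTP and 128 in TTP-AA at 1 h, 29.6% and 32.7% of its 3′UTR cDNAs, and none at 0 h, when the rest of its 3′UTR held 7 and 58. Its 3′UTR, of 408 nt, held no AUUUA at all. The cDNAs of TTP-AA covered positions 26 to 97 and were most numerous at position 57, with 10.

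**Figure D4:**
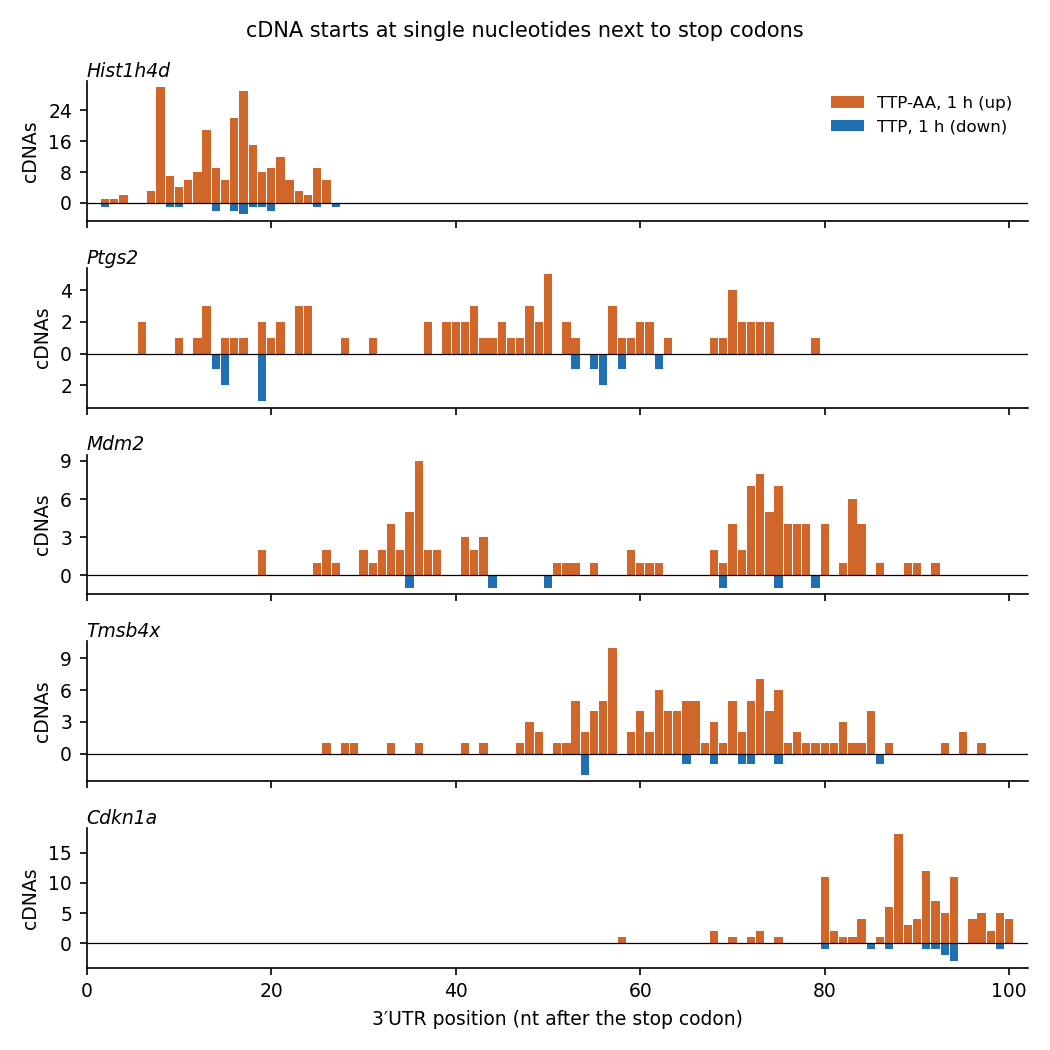
Number of cDNAs at each 3′UTR position (nt after the stop codon) at 1 h for 5 genes, with TTP-AA drawn upwards and TTP downwards and a separate scale for each gene. Hist1h4d cDNAs of TTP-AA lay at positions 2 to 26 and Cdkn1a cDNAs at positions 58 to 100, whereas Ptgs2 cDNAs spread from position 6 to 79.

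Cct8 and Snrpf, a core protein of spliceosomal snRNPs, had all their 3′UTR cDNAs next to the stop codon. For Cct8 the counts of TTP and TTP-AA were 7 and 10 without LPS, 8 and 56 after 1 h, and 0 and 2 after 4 h, within positions 23 to 87, and its first poly(A) signal began at position 95. Snrpf had 10 and 28 without LPS and 1 and 43 after 1 h, at positions 4 to 44, and its first signal began at position 43. Mgst3, a microsomal glutathione S-transferase with a signal at position 87, was found for TTP-AA only, with 24 cDNAs at 0 h, 18 at 1 h and 3 at 4 h.

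Txn1 showed a similar form without being exclusive, with 6 of 8 3′UTR cDNAs of TTP and 48 of 52 of TTP-AA at 1 h next to the stop codon and a signal at position 119. Ddx5, an RNA helicase, was the only gene bound there by both proteins at 4 h, with 4 cDNAs in TTP and 5 in TTP-AA. At 1 h it had 5 and 40, at 0 h 7 and 0, all within positions 72 to 94. Manf, a secreted ER stress protein, had 3 cDNAs in TTP at 4 h, and Pfdn2, a prefoldin subunit, had 4.

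**Figure D5:**
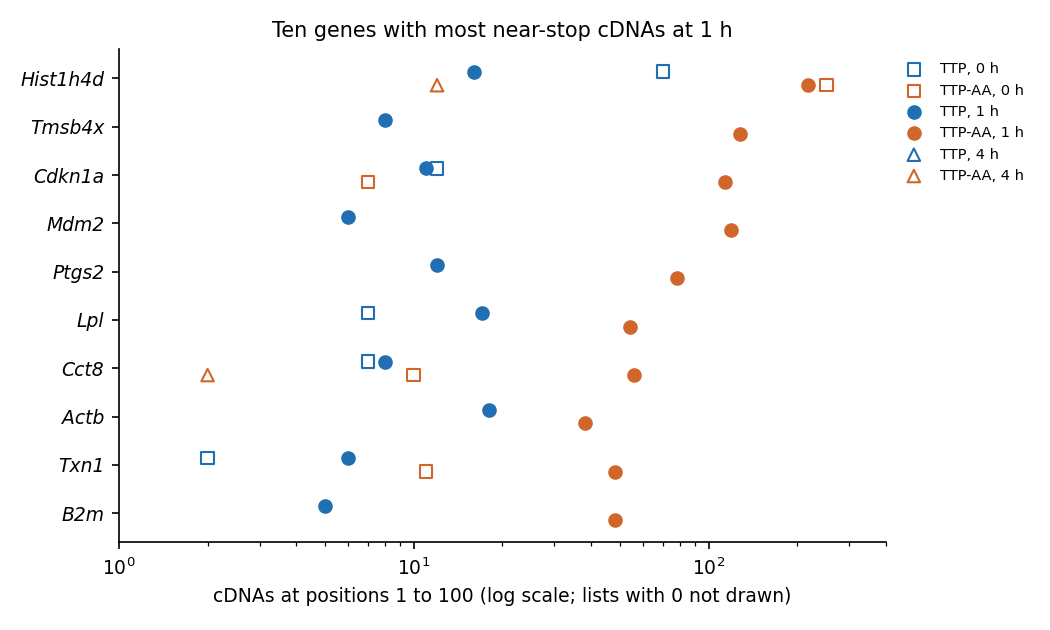
Near-stop cDNAs (log scale) of the 10 genes with the most at 1 h, by list, with TTP in blue and TTP-AA in orange, squares for 0 h, filled circles for 1 h and triangles for 4 h. TTP-AA had more cDNAs than TTP at 1 h in all 10 genes, in lists of 93510 and 9558 3′UTR cDNAs, and Hist1h4d was the only one with over 50 cDNAs at 0 h.

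Chemokine and immediate early genes had few of their cDNAs next to the stop codon. In TTP-AA at 1 h, 521 of 4468 genes with 3′UTR cDNAs (11.7%) had some next to the stop codon, which were 4.53% of all 3′UTR cDNAs. Of 8 chemokine genes with 3′UTR cDNAs 1 had any, Ccl4 with 4 of 886 cDNAs, and Cxcl2, with 2536 3′UTR cDNAs, had none. The chemokines as a group had 0.0659% of 6067 cDNAs there. Of 16 immediate early genes, which encode transcription factors such as Fos, Junb and Egr1, none of 1194 cDNAs lay next to a stop codon. Tnf had 12 of 1673 in TTP-AA, at positions 91 to 100, and none of 727 in TTP. The totals over all genes and over each group, here and below, include 3′UTRs shorter than 300 nt. Such 3′UTRs could hold no near-stop site by the rule used. With 3′UTRs of at least 300 nt only, 4.88% of 86817 cDNAs of TTP-AA at 1 h were near-stop. The paper lists shorter 3′UTRs for Ccl2, Tnfsf9, Gdf15 and Pfn1, so their lack of near-stop cDNAs may come from the rule.

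Of 10 cytokines and other secreted proteins 3 had near-stop cDNAs, Tnf, Lpl and Spp1 (osteopontin, 19 of 457), which made up 2.09% of 4063 3′UTR cDNAs. Of 15 feedback inhibitors of NF-κB and MAPK signalling 2 had any in TTP-AA at 1 h, Nfkbiz (an atypical IκB) with 10 of 375 and Socs1 (an inhibitor of cytokine receptor signalling) with 3 of 8 cDNAs. Of 15 deadenylation and decay factors 1 had any, Cnot11 with 3 cDNAs.

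Among p53 targets 3 of 8 had near-stop cDNAs (Mdm2, Cdkn1a and the kinase gene Plk2), which made up 9.49% of 2804 3′UTR cDNAs. Actin and cytoskeleton genes had 5 of 13, with 6.77% of 2805, and both portions were above the 4.53% over all genes. Both rested on few genes. Tmsb4x alone supplied 128 of the 190 near-stop cDNAs of the actin and cytoskeleton genes. Mdm2 and Cdkn1a supplied 119 and 114 of the 266 of the p53 targets. Of the genes for proteins that bind AU-rich elements and related proteins 5 of 12 had near-stop cDNAs, and their portion, 2.40% of 1417, was below it. Of the 27 genes that the study picked as leading or selected targets on these samples, 11 (40.7%) had near-stop cDNAs, with 2.98% of 18563, and that choice is not independent of these lists. Among macrophage markers, 7 of 8 had 3′UTR cDNAs in TTP-AA at 1 h and 2 had them next to the stop codon, Adgre1 (F4/80) with 22 of 37 and Lyz2 (lysozyme) with 12 of 143. None of the 6 markers of other cells had a 3′UTR cDNA in any list. Ptgs2, with 78 near-stop cDNAs, was in none of these lists. These are descriptions of lists by count and carry no test.

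For the comparison of the proteins within a gene, the near-stop part of its 3′UTR cDNAs at 1 h was tested in 358 genes with at least 10 3′UTR cDNAs by the two-sided Fisher's exact test with Benjamini-Hochberg adjustment. In 9 genes (2.51% of those tested) the portion differed at an adjusted p below 0.05, and in all 9 it was higher in TTP, while 0 were higher in TTP-AA. The size of the lists limited the direction, since with the cDNA totals of each gene kept, 14 of the 358 genes could have reached the largest p called (7.33e-04, exact test) in favour of TTP-AA and 91 in favour of TTP. In 5 of the 9 genes TTP-AA had no near-stop cDNA, so that these were tested only through their TTP cDNAs. At an unadjusted p below 0.05 there were 28. When each site was counted once, 1 gene was called.

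The lowest adjusted p was that of Nfkbia, which encodes the inhibitor IκBα (8.44e-05, Fisher's exact test). It had 6 of 59 3′UTR cDNAs of TTP and 0 of 662 of TTP-AA next to the stop codon. The test took each cDNA as independent. The 6 cDNAs of TTP lay at 4 nucleotides between positions 53 and 60, and the 30 nt after 1 of them also occurred in another gene. For Ube2d3 (a ubiquitin-conjugating enzyme) the numbers were 5 of 5 and 0 of 19, and for Hnrnpl (an hnRNP that regulates splicing) 6 of 6 and 3 of 35, both with an adjusted p of 0.00281 by the exact test. Hk2, a hexokinase, had 7 of 13 and 3 of 46 (adjusted p = 0.0223, exact test). Bri3bp, Pura, Slc38a2 and Myl12a were called too. The last 2 of these were named after their values were seen. Nfkbia, Ube2d3, Bri3bp, Pura and Slc38a2 had no near-stop cDNA of TTP-AA, so they were tested only through their TTP cDNAs.

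The portion of all 3′UTR cDNAs that a near-stop zone held was compared in the same way. Of 2083 gene zones tested, near-stop zones and remaining 3′UTRs together, 6.39% were called, with the higher portion in TTP-AA for 37 (1.78%) and in TTP for 96 (4.61%). Among the 113 near-stop zones 12 (10.6%) were called, all higher in TTP, and 60 of the 113 had no TTP cDNA. The direction was largely fixed by the sizes of the lists, 93510 and 9558 cDNAs, because with their own cDNA numbers only 6 of the 113 zones could have been called higher in TTP-AA, whereas all 113 could have been called higher in TTP. When sites were counted once, 6 were called.

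Actb had 18 near-stop cDNAs in TTP and 38 in TTP-AA, which were 0.188% and 0.0406% of all 3′UTR cDNAs (adjusted p = 1.13e-04, Fisher's exact test). For Ube2m, an enzyme of NEDD8 conjugation, the counts were 19 and 34 (adjusted p = 1.29e-05, exact test), and it was named after its values were seen. Ncl (nucleolin) had 11 and 19, Atp5a1 (a subunit of ATP synthase) 6 and 4, and Lpl 17 and 54 (adjusted p = 0.00181, 0.00338 and 0.00638, exact tests). Srf, a transcription factor, had 5 and 7 (adjusted p = 0.0490, exact test). This comparison also takes in how strongly the whole 3′UTR of a gene was bound. Within the gene, the near-stop portion was not called for any of these 6. The adjusted p was 0.677 for Actb, 0.669 for Ube2m, 0.241 for Ncl, 0.237 for Atp5a1 and 0.293 for Lpl (exact tests). In Ncl that portion was lower in TTP (68.75%) than in TTP-AA (100%). Hist1h4d, Tmsb4x, Mdm2 and Cdkn1a, with the highest counts in TTP-AA, were not called, with 16, 8, 6 and 11 cDNAs in TTP and adjusted p between 0.375 and 1 by the exact test.

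Both proteins shared many positions at 1 h. Of 373 near-stop TTP sites 277 (74.3%, 69.6 to 78.4) had a TTP-AA site of a 3′UTR within 15 nt, close to the 73.6% of mid-3′UTR sites, and 37.3% had one at the same nucleotide. At 0 h 59.2% (51.3 to 66.7) of near-stop TTP sites had a TTP-AA site within 15 nt, against 33.5% (31.7 to 35.5) of mid-3′UTR sites, and at 4 h 3 of 11 had one. In the reverse direction 47.1% of near-stop TTP-AA sites at 0 h and 25.4% at 1 h had a TTP site within 15 nt. At the level of genes, 74 were bound next to the stop codon by both at 1 h, 66.1% of the 112 genes of TTP and 14.2% of the 521 of TTP-AA, and 15 at 0 h, 41.7% of 36 and 30.6% of 49.

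Most near-stop sites rested on 1 cDNA, 83.4% in TTP and 76.1% in TTP-AA at 1 h, against 82.5% and 78.5% of mid-3′UTR sites. The mean was 1.48 cDNAs per site in TTP-AA at 1 h and 2.22 in TTP-AA at 0 h, where the highest site held 42. None of the near-stop sites overlapped an exon of a non-coding gene on the same strand. In TTP-AA at 1 h 23 lay in the coding sequence of another transcript, and 97.8% kept their place next to the stop codon on an APPRIS principal transcript. The 30 nt after the site also occurred in another gene for 9 sites of TTP and 36 of TTP-AA at 1 h, mainly in Lrch4, Ctnnd1 and Raver1, and for none at 0 or 4 h.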

How the data were processed

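Immunoprecipitated RNA of 15 samples was sequenced by iCLIP, and the deposited files are 6 lists of sites, 1 for each group. The values are of the unit score in the files, and the authors made them as unique cDNA counts per nucleotide with the sign giving the strand. The methods state that the authors removed PCR duplicates with random barcode bases, mapped unique reads to mm10 (GRCm38) with Bowtie and the Ensembl 75 annotation, assigned each read to the nucleotide preceding it, pooled the libraries of each group and retained sites with a false-discovery rate below 0.05 in iCount (100 permutations, 15 nt flanks). The 4 random bases limit how many cDNAs a nucleotide can show. The lists hold between 19167 and 174397 cDNAs, so that for the 3′UTRs considered a count of 0 (limit 3 cDNAs) allows a near-stop share of cDNAs between 0.00346% and 0.349%.

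Sites were placed on GENCODE M21 transcripts (58758 protein-coding transcripts, 0 left out), a later annotation than the authors used, with Python (3.11.15) and its packages pandas (2.3.3), numpy (2.4.6), scipy (1.17.1) and, for plots, matplotlib (3.10.9). Shares have Wilson intervals, differences Newcombe intervals and density ratios exact binomial intervals, and all cover counting error only. Genes were compared by two-sided Fisher's exact tests with Benjamini-Hochberg adjustment over all genes or zones with at least 10 cDNAs, at a threshold of 0.05, and odds ratios used an offset of 0.5 to order genes. The scripts were tested on simulated data. Alternatives changed the window, weighting, annotation, motif and minimum counts.

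Named genes were the 10 with the most near-stop cDNAs at 1 h, the 5 with the most in each 0 h and 4 h list, the 5 with the largest and smallest odds ratios past each threshold, the leading targets of the study with at least 10 near-stop cDNAs, and members of the gene lists as examples. Genes outside this rule are said to be so, and 1 gene that met it is not reported here. The members, the gene lists and the motifs were chosen with earlier results of these data known, and AUUUUA was added after the sequences were seen.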

Additional observations from a re-analysis of the deposited data

Results flagged for a closer look

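The difference of TTP-AA minus TTP in the near-stop share of 3′UTR sites differed between time points, by 95% intervals of the difference between differences, which treat sites as independent. The value at 1 h minus that at 0 h was -1.68 percentage points (-2.88 to -0.480). The value at 1 h minus that at 4 h was -5.76 points (-8.29 to -3.27), and that at 4 h minus that at 0 h was 4.08 points (1.45 to 6.75). The 4 h lists held 11 and 45 near-stop sites, and the headers of the 1 h lists carry a mark that the others lack. The part of either in these differences was not tested.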

How the results depend on the processing

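No paired analysis was possible because each list holds the sum of the libraries of its group, and for the same reason no replicate was left out. In TTP at 4 h, where 4 genes were bound, the mean over genes was not run. Of 209 recomputed values, 121 kept their direction and their side of the threshold or stayed within the interval. The causes of the other changes were not tested. The alternatives without histone genes, without early poly(A) signals and with positions 21 to 100 were chosen after seeing the data.

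The near-stop share of sites, in the order TTP and TTP-AA at 0, 1 and 4 h, was 1.52%, 2.46%, 2.18%, 1.62%, 0.198% and 3.60% for positions 1 to 50 and 16.3%, 15.2%, 17.3%, 14.4%, 15.9% and 15.5% for positions 1 to 200. With no minimum length of the 3′UTR it was 7.41%, 9.08%, 9.18%, 7.47%, 6.52% and 9.99%, and with at least 1000 nt 3.15%, 3.36%, 4.13% and 4.06% in the 0 h and 1 h lists. Sites with at least 2 cDNAs gave 6.29% and 8.09% at 0 h, 5.32% in TTP-AA at 1 h and 4.86% in TTP-AA at 4 h. Weighting by cDNAs gave 9.66% in TTP-AA at 0 h and 5.13% in TTP at 1 h, and APPRIS transcripts 5.18% in TTP-AA at 1 h. Without histone genes it was 4.09% and 4.25% at 0 h. Without early poly(A) signals it was 3.91%, 3.64%, 5.27% and 4.18% at 0 and 1 h and 5% in TTP-AA at 4 h.

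The difference of TTP-AA minus TTP at 0 h passed the threshold with cDNA weights (4.04 points), positions 1 to 50 (0.938) and no minimum length (1.67), and it turned to -1.11 points for positions 1 to 200 and -0.270 without early poly(A) signals. At 1 h it no longer passed with cDNA weights (-0.246), 3′UTRs of at least 1000 nt (-0.0730) or sites with at least 2 cDNAs (-0.291). At 4 h it no longer passed with the last 2 of these (1.79 and 2.99) and turned to -0.380 for positions 1 to 200.

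For the AUUUA difference of near-stop minus mid-3′UTR sites, UAUUUAU in place of AUUUA gave -8.51 and -10.0 points without LPS, -5.80 and -0.155 after 1 h, and -24.9 and -12.8 after 4 h, for TTP and TTP-AA in each case. AUUUA within 10 nt gave 7.37 in TTP at 0 h, 0.993 and 0.475 in TTP and TTP-AA at 1 h and 26.97 in TTP at 4 h, and within 50 nt -13.0 in TTP-AA at 0 h, -7.27 in TTP at 1 h and 10.1 in TTP-AA at 4 h. Weighting by cDNAs gave 27.1 in TTP-AA at 0 h. Sites with at least 2 cDNAs gave 18.15 in TTP-AA at 0 h, 3.28 and -0.882 in TTP and TTP-AA at 1 h and 16.7 in TTP-AA at 4 h. Means over genes gave 6.93 in TTP at 0 h and 8.74 in TTP-AA at 4 h. Without histone genes it was 5.15 and -8.18 at 0 h and 2.17 in TTP-AA at 4 h, and for positions 21 to 100 it was 0.510 in TTP at 1 h and 4.95 in TTP-AA at 4 h.

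The density ratio for positions 1 to 50 was 0.781 and 1.22 at 0 h and 1.01 and 0.702 at 1 h. Without histone genes it was 1.06 and 1.03 at 0 h and 1.32 in TTP-AA at 4 h. Sites with at least 2 cDNAs gave 1.29 in TTP at 1 h and 0.312 and 1.06 at 4 h, and leaving the last 100 nt out of the rest gave 0.584 in TTP at 4 h. The share of near-stop TTP sites with a TTP-AA site was 26.97% at 0 h and 37.3% at 1 h at the same nucleotide, and 68.6% at 0 h for sites with at least 2 cDNAs. With sites counted once, 1 gene and 6 near-stop zones were called higher in TTP.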
